A study of Arabidopsis thaliana with 8 samples.

Results

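CYP71B5, CYP71B6, CYP71B23 and CYP71B26 are 4 genes of the CYP71B subfamily of cytochromes P450 whose transcript levels were compared between the Arabidopsis accessions Cal-0 and Col-4. They were taken from the 19 CYP71B genes that had a probe set of their own, among 13350 genes with such a probe set. These 4 were chosen because their signals differed between the accessions, so that difference is given as a description and is not tested. CYP71B6 and CYP71B23 had higher signals in Cal-0, and CYP71B26 and CYP71B5 had higher signals in Col-4.

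Cytochromes P450 are haem-containing monooxygenases that insert an oxygen atom into small molecules. Most plant P450s are anchored in the endoplasmic reticulum and receive electrons from NADPH-cytochrome P450 reductase. The CYP71 family is a large plant family, many of whose members act in the synthesis of defence compounds, and CYP71B genes often lie side by side on a chromosome. PAD3 (CYP71B15), not analysed here, completes the synthesis of the indole phytoalexin camalexin, and CYP71B6 oxidises indole-3-acetonitrile, an intermediate of indole metabolism.

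RNA came from whole plants at developmental stage 3.90 of 2 natural accessions, Cal-0, given as calcicole, the term for plants that thrive on lime, and Col-4, labelled a non-calcicole. Sand-grown plants were kept at 23 degrees Celsius in a growth room on 0.5 times Long Ashton nutrients, and all plants of both accessions received 1 mM CaCl2, so no group lacked calcium or had another dose. Each accession had 4 Affymetrix ATH1 arrays, a 1-colour array with probes designed on Columbia sequence. How far differences from that sequence affected the Cal-0 signals, including those lower than in Col-4, was not tested. The labels do not say whether the replicates were separate plants or cultures, so p-values cover the spread among these arrays alone, possibly a technical one.

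The deposited MAS5 signals had a common trimmed mean of 100.01 on each array, and array medians lay between 44.0 and 50.1. The number of arrays limits the precision, and no detection calls were used. As a check of the whole-plant label, the leaf markers RCA and LHCB4.1 had a summed signal of 9694.5 to 13183.8 in Cal-0 and 10072.9 to 16157.4 in Col-4. The root markers PYK10 and EXPA7 summed to 434.5 to 1161.6 and 351.7 to 973. Markers of both organs thus gave signal in both accessions, at overlapping levels. Most of the root sum came from PYK10, at 395 to 1106.1 in Cal-0 and 328.8 to 887.3 in Col-4. The titles number the arrays 1 to 8, and arrays 1 to 4 and arrays 5 to 8 each held 2 arrays of either accession. This split into sets was made by array number alone. The labels do not say whether the sets were grown, extracted or hybridised apart.

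CYP71B6 (AT2G24180) is the member on chromosome 2. In Cal-0 its signal was 484.5, 382.9, 579.5 and 419.9 in replicates 1 to 4, and in Col-4 it was 237.2, 214.4, 247.7 and 191.6. Every Cal-0 array was above every Col-4 array, and the lowest Cal-0 value was that of replicate 2. The means were 466.7 ± 86.1 and 222.7 ± 24.98 (SD, n = 4 arrays each), a ratio of 2.10. On the scale of log2(signal + 16), used for all differences here, Cal-0 minus Col-4 was 1.01 with a standard error of 0.16. In these whole-plant samples fewer cells of a type and less RNA per cell cannot be told apart.

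CYP71B23 (AT3G26210), on chromosome 3, had signals of 107.4, 70.3, 121.1 and 75.0 in Cal-0 and of 36.9, 39.4, 33.2 and 33.7 in Col-4, in replicates 1 to 4. The accessions did not overlap, and the spread was wider in Cal-0. Means were 93.5 ± 24.7 and 35.8 ± 2.91 (SD, n = 4 each), with a ratio of 2.61 and a log2 difference of 1.05 (standard error 0.17).

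**Figure D1:**
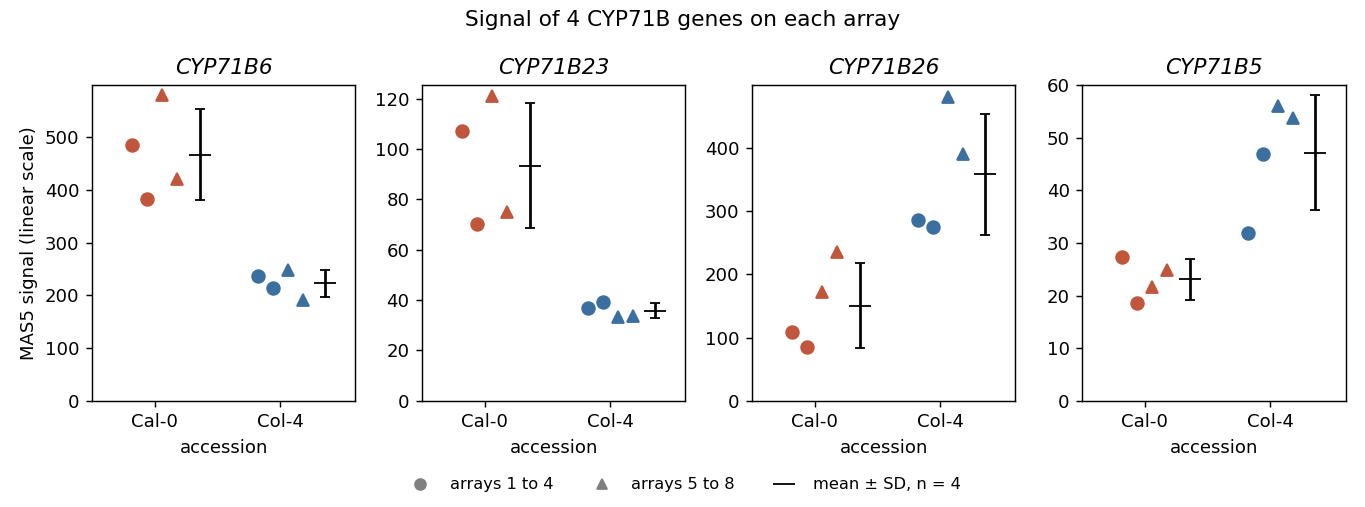
Signal of CYP71B6, CYP71B23, CYP71B26 and CYP71B5 (linear MAS5 scale, each panel from 0) on each array, by accession. Circles are arrays 1 to 4, triangles arrays 5 to 8, and the bar is the mean ± SD of 4 arrays. For CYP71B26 both triangles lie above both circles in either accession.

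CYP71B26 (AT3G26290) differed the other way. Its signal was 109.3, 85.3, 172.3 and 235.1 in the Cal-0 replicates 1 to 4, and 286.2, 275.1, 479.1 and 389.7 in those of Col-4. The highest Cal-0 value, in replicate 4, lay below the lowest Col-4 value, in replicate 2. Means were 150.5 ± 67.3 for Cal-0 and 357.5 ± 96.1 for Col-4 (SD, n = 4 each), so that Col-4 was at 2.38 times Cal-0 and the log2 difference, Cal-0 minus Col-4, was -1.22 (standard error 0.27).

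CYP71B5 (AT3G53280), elsewhere on chromosome 3, had signals of 27.3, 18.5, 21.6 and 24.9 in the Cal-0 replicates 1 to 4 and of 31.8, 46.9, 56.0 and 53.8 in those of Col-4. The groups did not overlap, but the gap between Cal-0 replicate 1 and Col-4 replicate 1 was narrow. Means were 23.1 ± 3.84 and 47.1 ± 10.9 (SD, n = 4 each), a ratio of Col-4 to Cal-0 of 2.04 and a log2 difference of -0.68 (standard error 0.16). At such low signals the difference depended on the constant added before taking logs, being -0.98 with 1 and -0.41 with 50. With the same constants the difference of CYP71B23 was 1.33 and 0.73.

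The values that chose the members came from a limma fit over the 15165 probe sets averaging at least 25 signal units, where a Benjamini-Hochberg adjusted p under 0.05 made a call. All 4 members were called, against 4.29% of the tested probe sets (651). In Cal-0 1.54% were called higher, as CYP71B6 and CYP71B23 were, and 2.75% lower, as CYP71B26 and CYP71B5 were. With the replicate number as a block the fit called 1299 probe sets, or 8.57%. Nothing is read from the calls of the members, here, with arrays left out or in any other setting, since the rule used the accession difference. Leaving out 1 array at a time, CYP71B6 and CYP71B23 stayed inside the threshold each time, while CYP71B5 lay outside it without any of 7 arrays, Col-4 replicate 1 being the exception (adjusted p up to 0.0933 in limma). CYP71B26 lay outside it without Cal-0 replicate 1, Cal-0 replicate 2, Col-4 replicate 3 or Col-4 replicate 4 (limma adjusted p up to 0.0973). Called probe sets numbered 412 when Cal-0 replicate 1 was left out and 413 when Col-4 replicate 2 was. CYP71B5 was just inside the threshold, at an adjusted p of 0.0331, and the nearest P450 gene outside it was CYP71B29 at 0.11. Of all tested probe sets, 1.35% had a larger absolute difference than CYP71B26, 2% than CYP71B23, 2.27% than CYP71B6 and 5.28% than CYP71B5.

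Both sets of arrays showed the direction of each member, which follows from the lack of overlap between the accessions. CYP71B6 differed by 0.89 within arrays 1 to 4 and by 1.12 within arrays 5 to 8, and CYP71B23 by 0.93 and 1.18. The difference of CYP71B26 was -1.40 and -1.04, and that of CYP71B5 was -0.50 and -0.85. Between arrays of the same replicate number, CYP71B5 differed least for replicate 1, at -0.14, against -0.77 to -0.94 for the other pairs. For CYP71B26 the pair of replicate 4 stood at -0.69 and the others between -1.27 and -1.52.

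The arrays of CYP71B6 and CYP71B23 followed each other closely. After each gene was centred on its own mean over the 8 arrays, the profiles differed by 0.11 on average on the log2 scale, and by at most 0.25 on any array. Among 8299 other tested probe sets with a single gene, CYP71B23 was the most like CYP71B6 by this measure and CYP71B6 the most like CYP71B23, where the median distance was 0.50 and 0.53. Both were chosen on the same accession difference, which brings their profiles together. Within Cal-0, where that difference plays no part, both were highest in replicate 3, then in replicates 1, 4 and 2. This order of single arrays was not tested. Within Col-4 the arrays stood in a different order for the 2 genes, over a narrow range. Replicate 3 was the highest there for CYP71B6 (247.7) and the lowest for CYP71B23 (33.2).

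The next genes by the same measure were AT3G44190 for CYP71B6, at a distance of 0.13, and AT1G49570 for CYP71B23, at 0.14. AT4G22280 was the third for both, at 0.14 from either. The signal of AT3G44190 was 181 ± 17.7 for Cal-0 and 93.6 ± 2.04 for Col-4 (SD, n = 4 each). AT4G22280 was at 94.2 ± 4.60 and 35.6 ± 4.52, and AT1G49570 at 168 ± 31.4 and 79.8 ± 9.37. Over Cal-0 replicates 3, 1, 4 and 2 AT3G44190 was at 204.3, 180.6, 177.9 and 161.3, the same order as in CYP71B6 and CYP71B23. AT4G22280 and AT1G49570 had other orders. These 3 genes were picked for their likeness to the members, so their accession differences are not tested.

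**Figure D2:**
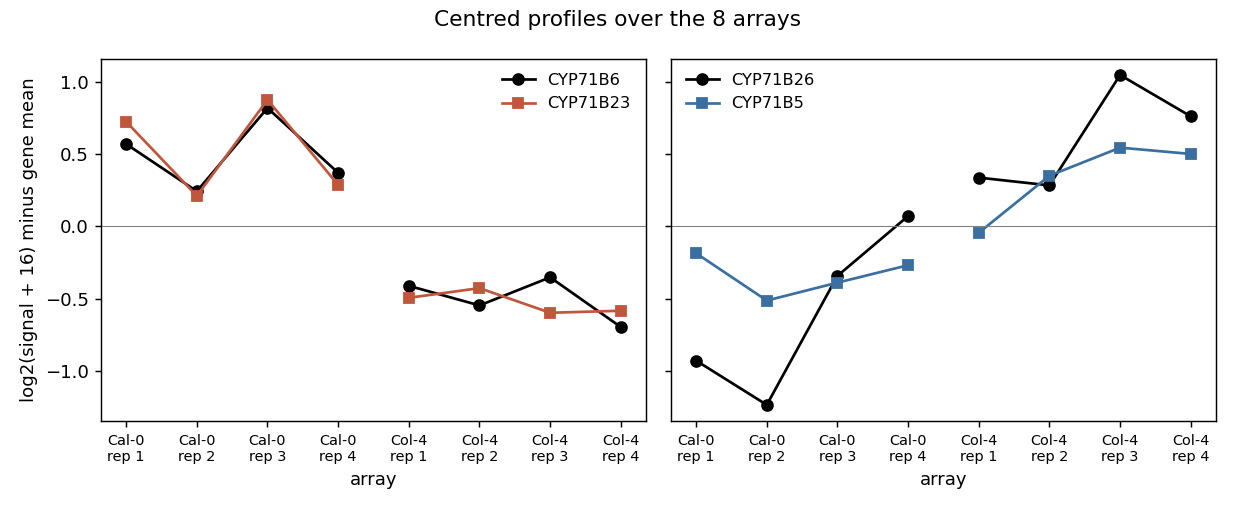
Log2(signal + 16) minus the gene's own mean over the 8 arrays, for CYP71B6 and CYP71B23 (left) and for CYP71B26 and CYP71B5 (right). Points are single arrays in each accession. The points of CYP71B6 and CYP71B23 are at most 0.25 apart, those of CYP71B26 and CYP71B5 up to 0.75.

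CYP71B26 and CYP71B5, both lower in Cal-0, were further apart, with a mean distance of 0.38. The profile most like that of CYP71B26 belonged to AT5G43150, at 0.13, with signals of 506 ± 208 for Cal-0 and 1062 ± 349 for Col-4 (SD, n = 4 each). AT3G14595 and AT2G45920 followed at 0.20 and 0.21. For CYP71B5 the closest were AT4G10300 at 0.09, AT4G02720 at 0.10 and AT2G41650 at 0.10, where the median distance was 0.40. None of these 6 has a P450 symbol.

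The rule made no use of the contrast between arrays 5 to 8 and arrays 1 to 4, which was tested with accession as a covariate. CYP71B26 was higher in arrays 5 to 8 by 0.77 on the log2 scale (standard error 0.15, 95% interval 0.45 to 1.10, limma adjusted p = 0.0191). Its means in arrays 1 to 4 and arrays 5 to 8 were 97.3 and 203.7 in Cal-0, and 280.7 and 434.4 in Col-4 (n = 2 arrays each). In either accession both arrays from 5 to 8 were above both from 1 to 4. Of all tested probe sets 8.03% passed in this contrast, 1217 in number, 4.04% being higher in arrays 5 to 8, and 155 to 788 did when any 1 array was left out, the lowest being without Cal-0 replicate 2. Without Cal-0 replicate 2, Col-4 replicate 1 or Col-4 replicate 2, CYP71B26 no longer passed, with differences of 0.68, 0.82 and 0.80 (limma adjusted p = 0.0622, 0.051 and 0.0512).

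The other 3 members did not pass. CYP71B5 stood at 0.20 (95% interval -0.12 to 0.51, limma adjusted p = 0.381), CYP71B6 at 0.07 (-0.26 to 0.40, limma adjusted p = 0.782) and CYP71B23 at -0.01 (-0.37 to 0.35, limma adjusted p = 0.981). The sign of CYP71B23 and of CYP71B6 turned when some single arrays were left out, and that of CYP71B23 also with other scalings. The residual SD of CYP71B26 with accession alone in the fit was 0.49 on the log2 scale, which 5.6% of the tested probe sets exceeded, and 0.22 once the set of arrays was a term. The other 3 were at 0.21 to 0.24 with accession alone, near the median of 0.24 over all tested probe sets.

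Several other measures had different ranges in the sets of arrays, some with overlap. Their part in the set difference of CYP71B26 was not tested. The leaf markers, with 2 of the 5 listed genes named on the array, summed to 9694.5 to 10310.7 in arrays 1 to 4 and 10762.1 to 16157.4 in arrays 5 to 8. The root markers, also 2 of 5, summed to 618.8 to 1161.6 and then to 351.7 to 688.4. PYK10, a beta-glucosidase gene of roots, differed by -0.83 (limma adjusted p = 0.0563) and LHCB4.1, a chlorophyll-binding protein gene, by 0.41 (limma adjusted p = 0.102). EXPA7 differed by -0.49 (limma adjusted p = 0.16) and RCA by 0.25 (limma adjusted p = 0.26), so none of these markers passed. The lowest single value of these markers was 22.9, of EXPA7 in Col-4 replicate 4, and without detection calls it does not show the presence of that transcript. The control probe sets of GAPDH and actin have a 3′ over 5′ signal that reflects how intact the RNA was. The log2 ratio ran from 0.927 to 1.70 in arrays 1 to 4 and from 1.66 to 2.39 in arrays 5 to 8. Within arrays 1 to 4 it also differed by accession, at 1.70 and 1.52 in Cal-0 and 0.955 and 0.927 in Col-4. Within arrays 5 to 8 the Cal-0 values, 1.885 and 1.965, lay between those of Col-4. With this ratio as a covariate the accession difference was 1.02 for CYP71B6 and 1.07 for CYP71B23. It was -1.38 for CYP71B26 and -0.76 for CYP71B5.

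Whether the accession difference itself changed between the sets was tested by an interaction term. CYP71B26 had an interaction of 0.35 (95% interval -0.29 to 1.00), CYP71B5 one of -0.35 (-0.97 to 0.27), CYP71B23 one of 0.24 (-0.50 to 0.99) and CYP71B6 one of 0.24 (-0.45 to 0.92). None passed (limma adjusted p = 0.999 for each), and limma called 0 of 15165 probe sets (0%), with 607 at an unadjusted p under 0.05. Leaving out single arrays gave 0 to 3 such calls, 3 without Col-4 replicate 3.

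**Figure D3:**
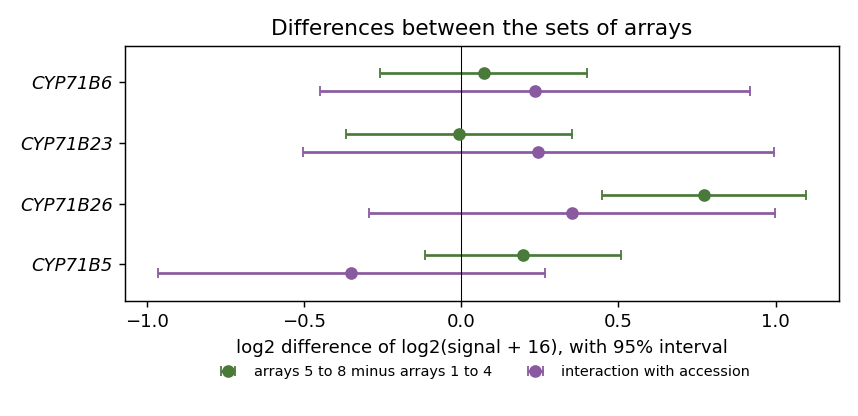
Log2 difference between arrays 5 to 8 and arrays 1 to 4 (upper point of each gene) and its interaction with accession (lower point) for the 4 genes. Bars are 95% intervals from limma. The set difference of CYP71B26, at 0.77, has an interval from 0.45 to 1.10.

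Of the other 15 CYP71B genes with a probe set of their own, 6 had a mean signal of at least 25 and were tested. None was called by limma between the accessions, against 4.29% of all tested probe sets, with 2 at an unadjusted p under 0.05. The members had been taken out for their difference, so this absence may follow from that choice. The 6 differences ran from -0.26 to 0.71, 5 of them positive, with a median of 0.22, where the median over all tested probe sets was 0.03. In none of the 15 genes were the accessions without overlap, against 10.3% of all tested probe sets. The same limit holds here, and 9 of the 15 were below the filter.

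CYP71B29 (AT1G13100), on chromosome 1, had signals of 33.5, 39.8, 36.1 and 36.1 in the Cal-0 replicates 1 to 4 and of 18.4, 8.7, 8.2 and 35.6 in those of Col-4. Col-4 replicate 4 lay among the Cal-0 arrays, while the other 3 were below them. The difference was 0.71 (standard error 0.22, limma adjusted p = 0.11), and without Col-4 replicate 4 it was 0.93 and passed (limma adjusted p = 0.00764). CYP71B24 (AT3G26230) was at 70.8 ± 16.4 for Cal-0 and 49.1 ± 14.1 for Col-4 (SD, n = 4 each), a difference of 0.42 (limma adjusted p = 0.302). It was higher in Cal-0 in each of the 4 pairs of replicate number, by 0.23 to 0.58, though the labels describe no pairing. The accessions overlapped, with single values of 55 to 93.6 in Cal-0 and 36.3 to 64.5 in Col-4.

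The remaining 4 tested genes lay nearer to 0. CYP71B22 was at 42.9 ± 15.8 for Cal-0 and 33.0 ± 16.1 for Col-4 (difference 0.29). CYP71B28 was at 149 ± 26.7 and 180 ± 4.26, the tested gene outside the members with a negative difference (-0.26, limma adjusted p = 0.432). CYP71B34 was at 96.7 ± 15.7 and 90.4 ± 5.39 (difference 0.07), with a 95% interval from -0.23 to 0.37. CYP71B35 was at 36.3 ± 9.85 and 31.0 ± 7.36 (difference 0.15). In the contrast between the sets of arrays none of the 6 was called by limma, with 2 at an unadjusted p under 0.05, CYP71B24 coming nearest at 0.45 (limma adjusted p = 0.0509).

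**Figure D4:**
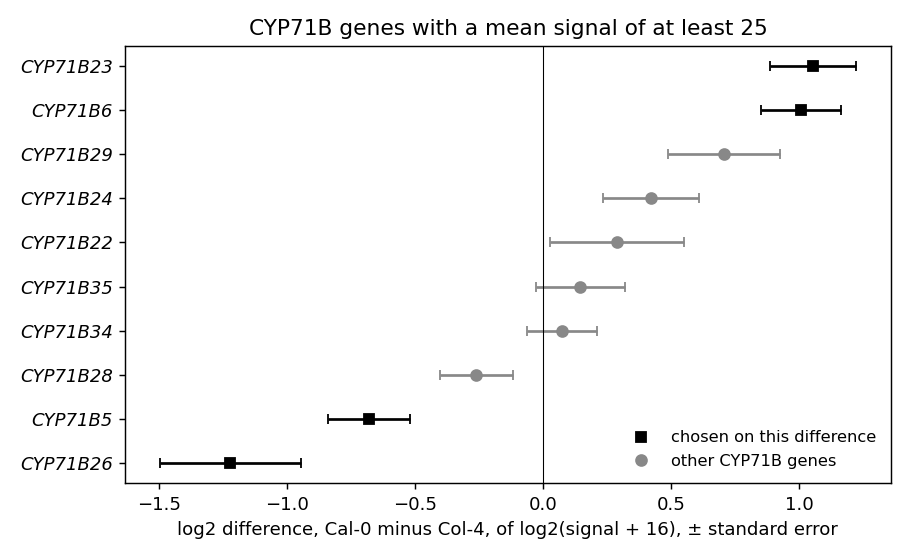
Log2 difference (Cal-0 minus Col-4) of the 10 CYP71B genes with a mean signal of at least 25, with its standard error. Squares are the 4 genes chosen on this difference and circles the other 6, which lie between -0.26 and 0.71.

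The 9 CYP71B genes below the filter were CYP71B16, CYP71B21, CYP71B25, CYP71B27, CYP71B30P, CYP71B31, CYP71B36, CYP71B37 and CYP71B38. Their mean signals over the 8 arrays ran from 1.11 to 20.5, 6 of them under 10, and their single values from 0.4 to 33.3. CYP71B38 was at 21.6 ± 7.14 for Cal-0 and 16.1 ± 4.88 for Col-4, CYP71B37 at 17.9 ± 12.7 and 23.0 ± 3.46, and CYP71B27, annotated as a transcribed pseudogene, at 17.2 ± 2.20 and 20.0 ± 9.03 (SD, n = 4 each). Such signals carry little information without detection calls. CYP71B19 and CYP71B20 share a single probe set and were not analysed.

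CYP71B23 and CYP71B26 belong to a group of CYP71B genes on chromosome 3 that the annotation lists from CYP71B16 to CYP71B37. It spans 25 annotated genes, of which 18 are CYP71B genes, 11 had a probe set of their own and 6 were tested. In the annotation's order 10 genes lie between CYP71B23 and CYP71B26, which differed between the accessions in opposite directions. CYP71B22, the gene before CYP71B23, and CYP71B34, behind CYP71B26 with 1 annotated pseudogene between them, were among the 4 tested genes of the group that were not called.

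Counting 5 annotated genes on either side of each member, 14 of 40 neighbours had a probe set of their own and 7 were tested. Of these 7, 3 were not CYP71B genes. None of the 7 was called by limma between the accessions, against 4.29% of all tested probe sets, with 1, CYP71B24, at an unadjusted p under 0.05. The CYP71B genes among the 7 were already counted above, and the limit from the choice of members holds for them. At that share, 7 genes are too few for the absence of calls to show a difference. The neighbours of CYP71B6 included AT2G24170, at 107 ± 17.4 for Cal-0 and 81.2 ± 13.6 for Col-4 (difference 0.33, limma adjusted p = 0.344), and AT2G24160 (difference 0.21). Next to CYP71B5, AT3G53270 differed by 0.07, while CYP71B30P on the other side was at 2.52 ± 0.99 and 1.52 ± 0.55 and was not tested (SD, n = 4 each).

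**Figure D5:**
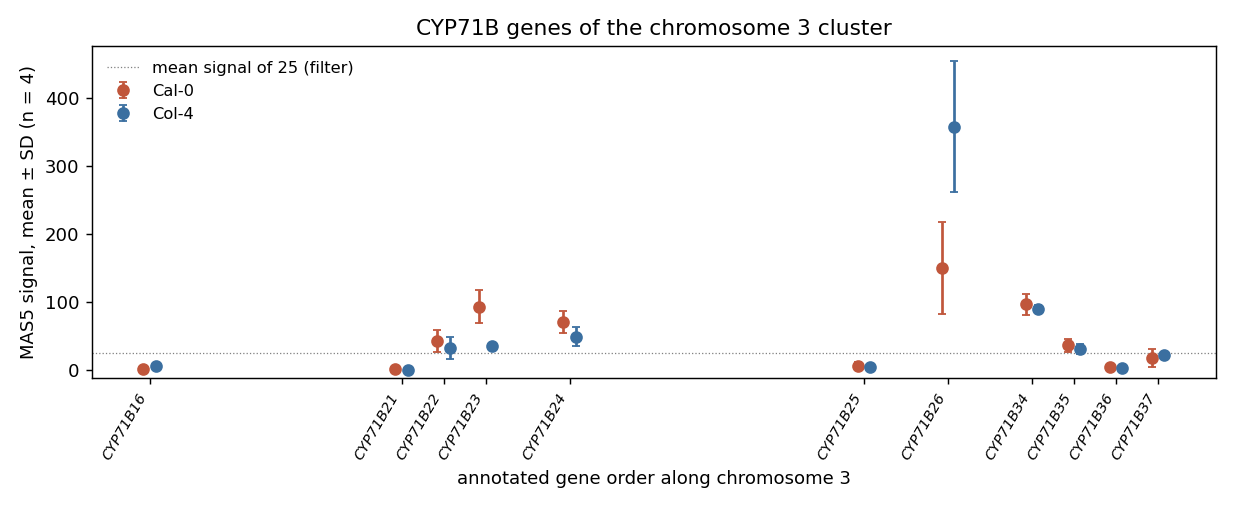
Mean signal ± SD (n = 4 arrays, linear scale) in Cal-0 and Col-4 for the 11 CYP71B genes of the chromosome 3 group with a probe set of their own, placed by annotated gene order. The dotted line is the mean signal of 25 used as a filter, and levels are to be compared within a gene only. CYP71B23 is higher in Cal-0 and CYP71B26 in Col-4.

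Outside the subfamily, 5 P450 genes had a probe set of their own and CYP78A9, of a family that promotes organ growth, was tested. It stood at 77.6 ± 23.4 for Cal-0 and 62.9 ± 15.3 for Col-4 (SD, n = 4 each; difference 0.24, limma adjusted p = 0.653). Of 12 genes listed for electron transfer to P450s and related reductases, 2 were tested and neither passed in limma, nor at an unadjusted p under 0.05. AT3G02280 (TAH18) differed by -0.08 and AT5G20080 by 0.04.

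Indole metabolism, in which CYP71B6 acts, was covered thinly. Of 14 genes listed for camalexin and related indole compounds, AT1G26380 was named on the array and fell below the filter, and of 3 genes listed for cyanide detoxification none was analysed. Of 9 genes of indole glucosinolate synthesis and use, UGT74B1 was tested. This gene encodes a glucosyltransferase that acts in glucosinolate core synthesis, and its signal was lower in Cal-0. Its signal was 82.6, 85.2, 62.6 and 79.2 in the Cal-0 replicates 1 to 4 and 212.7, 194.8, 237.3 and 227.6 in those of Col-4. The log2 difference was -1.33 (limma adjusted p = 0.000173). The direction was thus opposite to that of CYP71B6.

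Of 9 general defence markers 2 were tested and none passed in limma, 1 having an unadjusted p under 0.05. SAG101, which acts with EDS1 in immunity, was at 35.7 ± 5.33 for Cal-0 and 25.1 ± 5.00 for Col-4 (SD, n = 4 each; limma adjusted p = 0.283). PDF1.2, a jasmonate-responsive defensin gene, ranged from 1.6 to 196.8 in Cal-0 and from 40.2 to 400.9 in Col-4 (limma adjusted p = 0.684).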

How the data were processed

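The authors deposited 1 intensity per probe set, on a linear scale and computed by MAS5 according to the submitters' processing notes, of which the version and settings are not stated there. Probe set names came from the platform annotation. Symbols were brought up to date by gene identifier with RefSeq's TAIR10.1 table (13436 of 13513 single-gene probe sets matched). A further 8730 were unnamed, and the 503 with several genes were not used by name. Only names and gene order were taken from the annotation.

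Signals were transformed as log2(signal + 16). Of 22746 probe sets that are not controls, 15165 passed the filter on the mean (25 or more) and entered limma 3.58.1 (R 4.3.3, lmFit and eBayes, two-sided). P-values were adjusted over all of them by the Benjamini-Hochberg method, at a threshold of 0.05. The accession fit had no covariate, the fit of array sets had accession as one, and the interaction fit had both. The fits were tried on simulated data with independent noise on each array, so deviations shared by arrays were not covered. Arrays of the same replicate number deviated together (correlations of 0.278, 0.376, 0.478 and 0.403 for replicates 1 to 4). Among replicates 1 and 2, unlike numbers correlated as much. Cal-0 replicate 1 with Col-4 replicate 2 was at 0.273, and Cal-0 replicate 2 with Col-4 replicate 1 at 0.382. Among replicates 3 and 4, unlike numbers correlated less, at 0.035 for Cal-0 replicate 3 with Col-4 replicate 4 and 0.142 for the reverse. The number served as a block in an alternative. That pairing rests on the correlations of replicates 3 and 4, because the labels do not describe one.

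The genes, lists and tests were chosen with earlier results of these data known. The genes named were the members, all CYP71B genes, other P450s, up to 4 called genes of each of 9 lists or the 2 with the smallest p, the 5 neighbours on either side, and the 3 genes most alike in profile to each member. Cyclophilin genes with CYP symbols were left out. Alternatives were other pseudocounts, filters, normalizations, variance models, weights and blocks, each set of arrays alone, the 3′ to 5′ ratio as a covariate, probe sets without a cross-hybridisation suffix, and leaving out each array. No sequence is given, as none was among the sources used here.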

Additional observations from a re-analysis of the deposited data

Results flagged for a closer look

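For each named gene that was tested, the 4 arrays of an accession were searched for one that stood far from the rest, by Dixon's criterion at the 95% level on the log2(signal + 16) scale. Of 64 such groups 3 had one, where chance alone marks about 1 in 20, and none of them belonged to a CYP71B gene. In Col-4 replicate 4 AT5G20080 was at 221, while the rest of that accession lay between 354.8 and 368.3. AT5G43150, the gene most like CYP71B26 in profile, reached 1581.9 in Col-4 replicate 3, with the rest between 835.5 and 931.8. AT4G02720, among the genes most like CYP71B5, was at 55.3 in Cal-0 replicate 2, with the rest between 65.7 and 67.8.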

How the results depend on the processing

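Each member kept the direction of its accession difference in every setting tried. Because the accessions did not overlap for any member, leaving out arrays could not change that direction. CYP71B6 ran from 0.89 to 1.12, CYP71B23 from 0.73 to 1.33, CYP71B26 from -1.45 to -1.01 and CYP71B5 from -0.98 to -0.41. Besides the fits with 1 array left out, CYP71B5 lay outside the threshold with a pseudocount of 50, no filter, quantile normalization, within arrays 1 to 4 and within arrays 5 to 8 (limma adjusted p = 0.0573, 0.0543, 0.0532, 0.251 and 0.0654). CYP71B26 did so with a pseudocount of 1 and no filter (limma adjusted p = 0.0541 and 0.0699), and CYP71B6 and CYP71B23 within arrays 1 to 4 (limma adjusted p = 0.0694 and 0.0804). These values describe the fits and are no test of the members, which the rule chose on this same difference. With a pseudocount of 1 CYP71B5 was at -0.98 and CYP71B23 at 1.33, and with 50 they were at -0.41 and 0.73, because a larger constant shrinks differences of low signals. The number of probe sets called between the accessions, 651, was 406 with a mean signal of at least 100, where fewer were tested, 379 within arrays 1 to 4, 319 within arrays 5 to 8, 1095 with the set of arrays as a block, and 412 to 672 with 1 array left out. The replicate block gave 1299. It changed no other call stated here, and the pairing by number rests on correlations in arrays 5 to 8 and not on the labels. Between the sets of arrays 783 probe sets passed with a pseudocount of 1, 656 with no filter and 155 to 788 with 1 array left out. CYP71B26 ran from 0.65 to 0.87 in that contrast with 1 array left out, losing its call without 3 of them (0.68, 0.82 and 0.80), and it passed in each of the other settings. CYP71B23 changed sign in that contrast at 0.004 with a pseudocount of 50, 0.05 with quantile normalization, 0.031 with median centring, 0.003 with array weights and -0.15 to 0.086 with 1 array left out; CYP71B6 ran from -0.042 to 0.16. The interaction of CYP71B23 ran from -0.051 to 0.54, and 0 to 3 probe sets had a called interaction. The cause of these changes was not tested.

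Among uncalled genes, signs changed near 0. EXPA7 was at -0.008 with a pseudocount of 50, -0.001 with quantile normalization, -0.11 with array weights, -0.43 within arrays 1 to 4 and -0.19 to 0.27 with 1 array left out. RCA was at 0.12 with quantile normalization, 0.048 with array weights, 0.057 within arrays 1 to 4 and -0.10 to 0.12 with 1 array left out. Within arrays 1 to 4 CYP71B22 was at -0.02, and within arrays 5 to 8 AT3G53270 was at -0.076 and AT3G02280 at 0.085. With 1 array left out AT3G02280 ran from -0.16 to 0.038, AT5G20080 from -0.12 to 0.16 and CYP71B34 from -0.015 to 0.12. CYP71B29 passed with array weights (0.81, limma adjusted p = 0.031) and without Col-4 replicate 4 (0.93, limma adjusted p = 0.00764), and in no other setting run. The number of arrays, and low signals without detection calls, limit what these data can show.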
